A study of Homo sapiens with 8 samples.

Results

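The TIP60 complex, also called the NuA4 complex, was followed here through the transcripts of 10 of its subunit genes: KAT5, EP400, TRRAP, RUVBL1, RUVBL2, DMAP1, BRD8, ING3, EPC1 and MEAF6. The members were the rows of the table whose gene name is one of these symbols, which gave 10 of the 61906 genes listed, and each symbol matched 1 row. All 10 passed the filter on low values and were among the 14478 genes tested. U251 is an established human glioblastoma cell line, labelled as wild type, and the compound LLY-283 inhibits PRMT5, an arginine methyltransferase. The groups were 4 libraries from cells treated with DMSO (vehicle) and 4 libraries from cells treated with LLY-283 at 100 nM, in both cases for 24 h. The labels call the libraries biological replicates of 1 cell line, so that the p-values below measure the spread between cultures of U251 and not between tumors.

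TIP60 is the product of KAT5, an acetyltransferase of the MYST family that acetylates histones and also the damage kinase ATM. In the complex it is tied by EPC1 to the chromatin-reading subunits, while the ATPase EP400 exchanges histone variants and the large adaptor TRRAP docks transcription activators. The complex acts both as a coactivator of transcription and at DNA double-strand breaks.

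Values are TPM (a gene's length-corrected share of a library's transcripts, scaled to a fixed total), which the authors estimated with RSEM per gene and library. TPM corrects for the length of the transcripts and for the total of each library, so that levels can be compared between genes, but it keeps no read number and the depth of the libraries is unknown. The values sum over all isoforms of a gene and say nothing about which isoform of KAT5 or of another member was made. Fewer cells of a state and less RNA per cell cannot be told apart in such bulk libraries. Of the 10 genes fixed as glioma and neural lineage markers, 9 were expressed above the filter and OLIG2 was not, and the list summed to between 7595 and 7779 TPM with vehicle and between 7290 and 7652 TPM with LLY-283. After treatment GFAP, FABP7, NES and SOX2 fell and CD44 rose (4 and 1 of the 9 tested, limma, adjusted p under 0.05), where 17.6% of all genes tested fell and 8.61% rose, and whether this has a part in the results below was not tested. The 10 markers fixed for other cell types summed to between 1.26 and 3.70 TPM with vehicle and between 1.69 and 2.08 TPM with LLY-283, with CD3E at 0 in all libraries. PRMT5 itself was at 100.0 ± 5.03 TPM with vehicle and 100.4 ± 4.91 TPM with LLY-283 (SD, n = 4 each). LLY-283 replicate 4 stood apart in that transcripts of the mitochondrial genome made up 7.19% of its TPM, against 10.6% to 11% in the other 3 LLY-283 libraries and 10.2% to 10.7% in the vehicle libraries.

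The region before the gene start is shown for the catalytic subunit, for the ATPase that organizes the complex and for BRD8, the member with a decrease that passed the test. The sequences come from RefSeq (GRCh38.p14), which held an entry for 8 of the 10 members, and each is the 250 bases before the annotated start, 5′ to 3′ on the strand of the gene. The windows are chr11:65712002-65712251 on the plus strand for KAT5, chr12:131949692-131949941 on the plus strand for EP400 and chr5:138178631-138178880 on the minus strand for BRD8. The windows of KAT5 and BRD8 lie within the GENCODE gene spans, which begin further upstream. Capitals mark matches, on either strand, to CCGGAAG (an ETS-type motif), CCAAT (the CCAAT box), CACGTG (an E-box) and GGGCGG (a GC box), and none of the marked matches overlap.
KAT5: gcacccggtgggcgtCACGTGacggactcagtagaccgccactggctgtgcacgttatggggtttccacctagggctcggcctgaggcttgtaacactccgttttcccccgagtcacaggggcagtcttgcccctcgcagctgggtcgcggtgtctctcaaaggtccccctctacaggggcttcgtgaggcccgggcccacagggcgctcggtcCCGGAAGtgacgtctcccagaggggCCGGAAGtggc
EP400: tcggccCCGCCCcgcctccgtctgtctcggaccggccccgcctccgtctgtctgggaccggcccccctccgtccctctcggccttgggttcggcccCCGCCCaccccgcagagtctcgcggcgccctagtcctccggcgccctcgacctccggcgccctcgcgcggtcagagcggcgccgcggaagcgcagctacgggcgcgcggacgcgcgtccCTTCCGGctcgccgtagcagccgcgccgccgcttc
BRD8: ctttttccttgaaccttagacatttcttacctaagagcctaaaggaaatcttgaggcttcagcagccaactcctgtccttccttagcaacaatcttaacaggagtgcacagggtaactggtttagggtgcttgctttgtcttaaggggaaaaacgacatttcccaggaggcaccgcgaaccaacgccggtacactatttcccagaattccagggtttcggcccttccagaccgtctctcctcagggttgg

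The KAT5 window held CCGGAAG at 36 and 11 bases before the start and CACGTG at 235 bases before it. The EP400 window held the reverse complement of CCGGAAG at 35 bases before the start and the reverse complement of GGGCGG at 244 and 154 bases before it. The BRD8 window held none of the 4 motifs. Over the 11 windows listed for the 8 members, CCGGAAG was found in 4 (DMAP1, EP400, KAT5 and MEAF6), against 8.52% of all 35116 windows of the same length. CCAAT was found in 6 of the 11 (against 32.0% of all windows), GGGCGG in 5 (against 42.6%) and CACGTG in 1 (against 6.34%). A match is a description of the letters only.

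The 10 genes spanned a 19.9-fold range of levels in vehicle-treated cells, from RUVBL2 at 130.6 ± 5.77 TPM to EPC1 at 6.58 ± 0.879 TPM (SD, n = 4). The order of the vehicle means was RUVBL2, BRD8, RUVBL1, MEAF6, DMAP1, KAT5, EP400, TRRAP, ING3 and EPC1. Among neighbours in this order, RUVBL1 and MEAF6 had overlapping ranges, and the ranges of all other neighbouring pairs were apart, BRD8 and RUVBL1 only narrowly (lowest BRD8 value 71.64 TPM, highest RUVBL1 value 70.73 TPM). Among the levels of all genes tested, RUVBL2 lay at percentile 91.7, KAT5 at percentile 71.2 and EPC1 at percentile 28.2. With LLY-283 the order of the means was kept except for BRD8, which had a lower mean (66.0 TPM) than RUVBL1 (72.1 TPM) and MEAF6 (66.6 TPM). The LLY-283 ranges of BRD8 and MEAF6 overlapped and the median of BRD8 was the higher (67.6 against 66.2 TPM), so that these neighbours have no clear order. The TPM of the 10 members summed to 496.6 ± 3.88 with vehicle and to 498.2 ± 9.86 with LLY-283 (SD, n = 4 each).

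**Figure D1:**
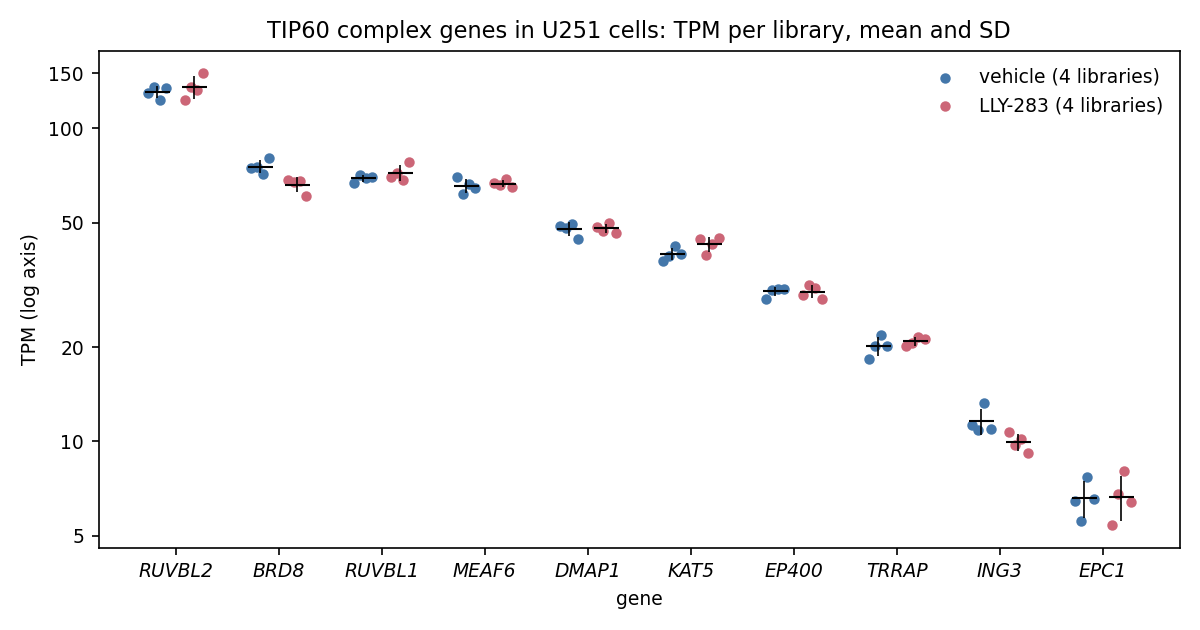
TPM of the 10 TIP60 complex genes on a log axis, ordered by the vehicle mean; points are libraries (4 vehicle, 4 LLY-283), the horizontal bar is the mean and the vertical bar the SD. The groups overlap for 8 genes, while all 4 LLY-283 points of BRD8 and of ING3 lie under the 4 vehicle points.

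To determine whether inhibition of PRMT5 altered the transcripts of the complex, the 4 LLY-283 libraries were compared with the 4 vehicle libraries. BRD8 was decreased by 12.4% and was the single member that passed the test, and none of the 10 genes was increased. The other 9 members did not pass, and the largest difference in either direction was 1.16-fold (ING3, lower). The test was limma on log2(TPM + 0.1) across all 14478 genes with Benjamini-Hochberg adjustment, and a gene was called at an adjusted p-value under 0.05. Among all genes tested, 8.61% were called increased and 17.6% decreased, so that 1 decreased and 0 increased of 10 members is close to or below that background. At an unadjusted p-value under 0.05 there were 2 members, BRD8 and ING3, against 38.6% of all genes. No member passed the test with a change over 1.5-fold, against 3.87% of all genes. The groups did not overlap for 2 members, against 29.2% of all genes. The median log2 fold change of the members was 0.02, with 7 higher and 3 lower, while the median of all genes tested was -0.05, with 39.8% of them higher. Single libraries moved the median of the members. It was -0.002 without LLY-283 replicate 3, with 5 members higher, and 0.04 without LLY-283 replicate 1, with 8 higher. The counts of members that passed the test depend on the scaling. With median-of-ratios scaling 1 member was increased and 1 decreased, where 13.3% of all genes were increased and 12.9% decreased. With quantile normalization 0 members were increased and 1 decreased, against 12.9% and 12.6% of all genes. After removing, in each library, the dependence of values on GC content and length (the GC and length trend) 3 members were increased and 0 decreased, against 19.1% increased and 10.8% decreased of all genes. This removal also brought every library to the same mean log2 value, so that it is a rescaling as well.

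**Figure D2:**
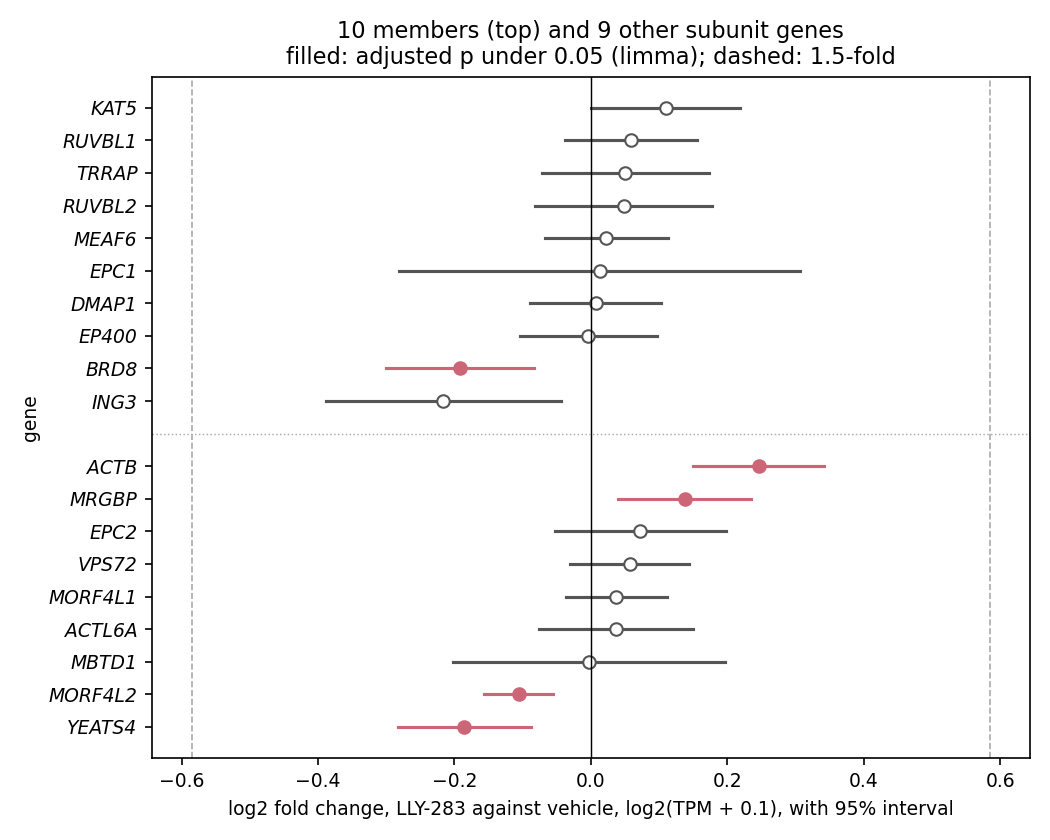
Log2 fold change of LLY-283 against vehicle with its 95% interval (limma, 4 libraries per group) for the 10 members and the 9 other subunit genes; filled points have an adjusted p-value under 0.05 and dashed lines mark 1.5-fold. All 19 intervals lie inside the 1.5-fold lines, and 1 member and 4 of the other subunits are filled.

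In the acetyltransferase module, KAT5 (ENSG00000172977, chromosome 11, 65711996 to 65719604, GRCh38) encodes the catalytic subunit. It was expressed at 37.79, 39.14, 41.99 and 39.56 TPM in vehicle replicates 1 to 4 and at 44.26, 39.44, 42.79 and 44.60 TPM in LLY-283 replicates 1 to 4. In total 3 of the 4 LLY-283 libraries were above every vehicle library, and replicate 2 lay within the vehicle range. The log2 fold change was 0.11 (standard error 0.049, 95% interval -0.0003 to 0.22), which did not pass the threshold (adjusted p = 0.130, limma). KAT5 did pass without LLY-283 replicate 2 (log2 fold change 0.15, adjusted p = 0.0460), with median-of-ratios scaling (0.15, adjusted p = 0.0388) and with the GC and length trend removed (0.19, adjusted p = 0.0168), so that its call depends on 1 library and on the scaling. Its sign stayed positive under all 19 alternatives. The gene overlaps RNASEH2C on the opposite strand, and the sources used here do not say whether reads were counted by strand.

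EPC1 (ENSG00000120616, chromosome 10, 32267751 to 32378798), which overlaps EPC1-AS1 and other noncoding genes on the opposite strand, encodes the scaffold that joins TIP60 to the other chromatin-binding subunits. It had the lowest level of the 10 genes, with 6.45, 5.58, 7.72 and 6.56 TPM in the vehicle libraries and 5.40, 6.80, 8.06 and 6.39 TPM in the LLY-283 libraries. The LLY-283 values reached both below and above the vehicle range. Its log2 fold change of 0.01 had a standard error of 0.13 (adjusted p = 0.952, limma), the widest of the members, and the interval reached from 0.823-fold to 1.24-fold. The log2 fold change turned negative without vehicle replicate 2 (-0.06), LLY-283 replicate 2 (-0.001) or LLY-283 replicate 3 (-0.08). It was 0.11 without LLY-283 replicate 1.

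MEAF6 (ENSG00000163875, chromosome 1, 37489993 to 37514766), a small subunit that is shared with other MYST complexes, was at 69.70, 61.78, 66.23 and 64.70 TPM in the vehicle libraries and at 66.81, 65.69, 68.79 and 65.06 TPM in the LLY-283 libraries. All LLY-283 values lay within the vehicle range. Its interval was 0.954-fold to 1.08-fold (log2 fold change 0.02, adjusted p = 0.718, limma), and it passed the threshold with the GC and length trend removed (0.12, adjusted p = 0.0398). The log2 fold change was -0.006 without vehicle replicate 2 and 0.05 without vehicle replicate 1.

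ING3 (ENSG00000071243, chromosome 7, 120950763 to 120977216) encodes a subunit whose PHD finger binds methylated lysine of histone tails. It was at 11.26, 10.91, 13.24 and 10.95 TPM with vehicle and at 10.73, 9.72, 10.15 and 9.19 TPM with LLY-283. Every LLY-283 value was below every vehicle value, but the nearest values, 10.91 and 10.73 TPM, were close, and vehicle replicate 3 was high. The log2 fold change of -0.22 (standard error 0.077, 95% interval -0.39 to -0.04) missed the threshold (adjusted p = 0.0646, limma), and it did so under all 19 alternatives, with adjusted p-values between 0.0599 and 0.233. Without LLY-283 replicate 4 it was -0.18 (adjusted p = 0.133). No gene overlaps ING3 in GENCODE release 44.

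Among the subunits arranged around EP400, BRD8 (ENSG00000112983, chromosome 5, 138139770 to 138178953) encodes a bromodomain protein, a reader of acetylated lysine. It fell from 74.73, 75.13, 71.64 and 80.27 TPM in vehicle replicates 1 to 4 to 68.28, 67.49, 67.80 and 60.63 TPM in LLY-283 replicates 1 to 4. The groups did not overlap, with vehicle replicate 4 highest and LLY-283 replicate 4 lowest. Its log2 fold change was -0.19, with a standard error of 0.049 and a 95% interval of -0.30 to -0.08 (adjusted p = 0.0179, limma). Without LLY-283 replicate 4, the library with fewer mitochondrial transcripts, BRD8 was still decreased (log2 fold change -0.15, adjusted p = 0.0203). It missed the threshold without vehicle replicate 4 (-0.16, adjusted p = 0.0514) and with the GC and length trend removed (-0.10, adjusted p = 0.143), and the sign was negative under all 19 alternatives. BRD8 also missed it with the replicate number as a block (-0.19, adjusted p = 0.0557, limma). The labels do not say whether libraries of the same number form pairs (see the closing section). BRD8 overlaps the protein-coding gene KIF20A on the opposite strand.

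As a description, with the pair chosen after the values were seen, the ratio of BRD8 to KAT5 was 1.98, 1.92, 1.71 and 2.03 in the vehicle libraries. In the LLY-283 libraries it was 1.54, 1.71, 1.58 and 1.36. The lowest vehicle value (1.706) and the highest LLY-283 value (1.711) crossed.

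EP400 (ENSG00000183495, chromosome 12, 131949942 to 132080460), the ATPase on which these subunits assemble, was at 28.56, 30.49, 30.69 and 30.76 TPM with vehicle and at 29.28, 31.55, 30.93 and 28.47 TPM with LLY-283. The groups overlapped, and LLY-283 values lay both below and above the vehicle range. The difference of -0.004 on the log2 scale had a standard error of 0.045 (adjusted p = 0.959, limma), and the interval was 0.930-fold to 1.07-fold. The sign of this value turned positive without LLY-283 replicate 4 (0.02) and with some other single libraries left out, under quantile normalization, with median-of-ratios scaling and with the GC and length trend removed.

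RUVBL1 and RUVBL2 encode paired AAA+ ATPases that are also part of the INO80, SRCAP and R2TP assemblies. RUVBL1 (ENSG00000175792, chromosome 3, 128064778 to 128153914) was at 66.75, 70.73, 69.43 and 69.66 TPM with vehicle and at 69.91, 71.93, 68.59 and 78.00 TPM with LLY-283. RUVBL2 (ENSG00000183207, chromosome 19, 48993562 to 49015970) was at 129.97, 135.20, 122.71 and 134.63 TPM with vehicle and at 122.96, 135.72, 132.69 and 149.79 TPM with LLY-283. For both genes LLY-283 replicate 4 was the highest library, and the groups overlapped. The log2 fold changes were 0.06 for RUVBL1 (standard error 0.043, adjusted p = 0.343, limma) and 0.05 for RUVBL2 (standard error 0.058, adjusted p = 0.576). Without LLY-283 replicate 4 they were 0.02 and -0.002, and RUVBL1 passed the threshold when the GC and length trend was removed (0.17, adjusted p = 0.0155). RUVBL1 overlaps the protein-coding genes SEC61A1 and EEFSEC on the opposite strand.

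DMAP1 (ENSG00000178028, chromosome 1, 44213455 to 44220681), a subunit that the TIP60 and SRCAP complexes share, was at 48.73, 48.05, 49.64 and 44.30 TPM with vehicle and at 48.36, 47.11, 49.77 and 46.35 TPM with LLY-283. The difference of 0.01 on the log2 scale was smaller than the replicate spread, with a standard error of 0.043 (adjusted p = 0.917, limma). Its interval was 0.940-fold to 1.07-fold, and its sign turned negative with the mitochondrial genes or some single libraries left out.

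TRRAP (ENSG00000196367, chromosome 7, 98877933 to 99050831), a very large pseudokinase of the ATM-related family, serves the TIP60 and SAGA complexes. It was at 18.40, 20.22, 21.87 and 20.17 TPM with vehicle and at 20.12, 20.59, 21.49 and 21.23 TPM with LLY-283. All LLY-283 values lay within the vehicle range. TRRAP differed by 0.05 on the log2 scale, with a standard error of 0.055 (adjusted p = 0.532, limma) and an interval of 0.951-fold to 1.13-fold. It was 0.0077 without vehicle replicate 1 and 0.09 without vehicle replicate 3. TRRAP overlaps SMURF1 on the opposite strand.

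The 95% intervals of all 10 members lay within 1.5-fold of no change, and those of 9 lay within 1.25-fold, the exception being ING3. A p-value over the threshold does not show that the level was the same, and these intervals give the size of change that the 4 libraries per group leave possible. The standard error was above the median of all genes tested (0.066) for 2 members, ING3 and EPC1.

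To compare subunits with each other independently of the scaling of the libraries, 5 ratios were taken within each library. For the paired ATPases, the ratio of RUVBL1 to RUVBL2 was 0.514, 0.524, 0.566 and 0.518 with vehicle and 0.569, 0.530, 0.517 and 0.521 with LLY-283. The groups overlapped, and the difference was 0.01 on the log2 scale (p = 0.629, exact two-sided permutation test over the 70 arrangements of 8 libraries). The ratio of KAT5 to EP400 was 1.32, 1.28, 1.37 and 1.29 with vehicle and 1.51, 1.25, 1.38 and 1.56 with LLY-283. Of the 4 LLY-283 ratios, 3 were above every vehicle ratio and replicate 2 was below all of them, a difference of 0.11 (p = 0.229, exact permutation test) that was 0.18 without LLY-283 replicate 2 and 0.067 without LLY-283 replicate 4. For KAT5 to TRRAP the difference was 0.06 (p = 0.286, exact permutation test), and 0.025 without LLY-283 replicate 1 and 0.091 without LLY-283 replicate 2. The paralogs EPC1 and EPC2 had ratios of 0.413 to 0.514 with vehicle and 0.341 to 0.545 with LLY-283 (difference -0.06, p = 0.714, exact permutation test). EP400 to its paralog SRCAP had ratios of 1.2 to 1.5 with vehicle and 1.17 to 1.43 with LLY-283 (difference -0.03, p = 0.771, exact permutation test). Adjusted over the 5 ratios, the p-values of these exact tests were between 0.714 and 0.771, and the smallest p-value that the design allows is 0.0286.

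**Figure D3:**
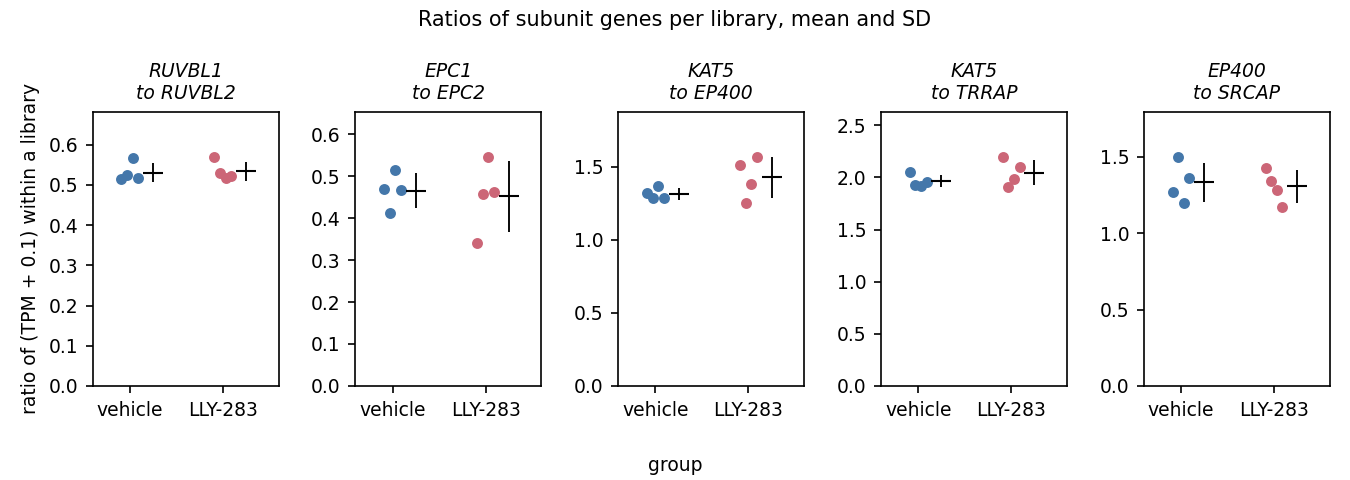
Ratio of TPM + 0.1 of 2 subunit genes within each library, for the 5 pairs; points are libraries, the horizontal bar is the mean and the vertical bar the SD of 4. The groups overlap in each panel, and the KAT5 to EP400 ratio spreads more with LLY-283 (1.25 to 1.56) than with vehicle (1.28 to 1.37).

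The complex holds further subunits, and 9 of their genes were listed. Of these, 2 rose, 2 fell and 5 did not pass, with a median log2 fold change of 0.04, where 8.61% of all genes tested rose and 17.6% fell. With the GC and length trend removed the split was 4 increased and 0 decreased, against 19.1% and 10.8% of all genes. ACTB, which encodes the actin found in several chromatin complexes as well as in the cytoskeleton, rose by 0.25 on the log2 scale (from 9071 ± 179 to 10771 ± 648 TPM, mean ± SD of 4 libraries, adjusted p = 0.00313, limma). MRGBP, which binds the MRG proteins, rose by 0.14 on the log2 scale (from 26.4 ± 1.04 to 29.1 ± 1.11 TPM, adjusted p = 0.0431). YEATS4, a reader of acetylated histones shared with SRCAP, fell by 0.19 on the log2 scale (from 33.0 ± 0.405 to 29.0 ± 1.6 TPM, adjusted p = 0.0128). MORF4L2, an MRG protein, fell by 0.11 on the log2 scale (from 456.7 ± 3.55 to 424.5 ± 6.70 TPM, adjusted p = 0.00866). The groups did not overlap for 4 of the 9 genes, the same 4 that passed the test, where 29.2% of all genes tested did not overlap. The calls did not hold under all alternatives. ACTB did not pass under quantile normalization (0.12, adjusted p = 0.357), MORF4L2 with median-of-ratios scaling (-0.06, adjusted p = 0.110) or the GC and length trend removed (-0.03, adjusted p = 0.446), YEATS4 with that trend removed (-0.10, adjusted p = 0.0756) and MRGBP under 9 of 19 alternatives, 7 of them with 1 library left out (adjusted p from 0.0528 to 0.103 where it did not pass, and 0.0694 without LLY-283 replicate 4). ACTB and the MORF4L genes have near-identical copies in the genome, and their values are uncertain where reads were split. MORF4L1, the paralog of MORF4L2 (log2 fold change 0.04), ACTL6A, an actin-related protein (0.04), VPS72, a histone chaperone (0.06), EPC2, the paralog of EPC1 (0.07), and MBTD1, a reader of methylated histones (-0.003), had adjusted p-values from 0.312 to 0.983. EPC2 did pass under quantile normalization (0.15, adjusted p = 0.0390) and with the GC and length trend removed (0.14, adjusted p = 0.0360), and VPS72 with that trend removed (0.16, adjusted p = 0.0202). MBTD1 had a positive value without LLY-283 replicate 4 (0.07) and with some other single libraries left out, under quantile normalization, with median-of-ratios scaling and with the GC and length trend removed. With each library left out in turn, log2 fold changes ranged from 0.020 to 0.062 for MORF4L1 and from -0.013 to 0.064 for ACTL6A. They ranged from 0.025 to 0.074 for VPS72 and from 0.038 to 0.11 for EPC2. No gene of this group passed a 1.5-fold change.

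Complexes that share subunits or functions with TIP60 were described with 7 further lists, again beside the background of 8.61% increased and 17.6% decreased genes. For counts with the GC and length trend removed the background is 19.1% increased and 10.8% decreased, and for quantile normalization 12.9% and 12.6%. The SRCAP complex deposits the histone variant H2A.Z. Beside subunits, its list holds H2AZ1, a gene for that variant, and the chaperone gene ANP32E, and it leaves out ACTB, which rose (see above). Of the 12 genes in this list, which include 3 members, 3 were decreased (YEATS4, ANP32E and H2AZ1) and 0 increased. At an unadjusted p-value under 0.05 limma gave 0 increased and 3 decreased genes in it (38.6% of all genes in either direction), but with the GC and length trend removed 3 genes of this list were increased and 0 decreased. ANP32E, a chaperone that removes H2A.Z, fell by 0.18 on the log2 scale (from 143.9 ± 3.2 to 127.1 ± 1.54 TPM, adjusted p = 0.00134, limma), a call that was lost with the GC and length trend removed (-0.10, adjusted p = 0.0690). SRCAP itself, the ATPase of that complex, was at 22.7 ± 2.19 TPM with vehicle and 23.1 ± 1.76 TPM with LLY-283 (log2 fold change 0.02, adjusted p = 0.848). In the INO80 list of 15 genes (2 members), 1 was increased and 1 decreased, and with the GC and length trend removed 4 and 0. MCRS1, a subunit of INO80 and of a MYST complex, rose by 0.29 on the log2 scale (from 43.5 ± 1.55 to 53.3 ± 1.02 TPM, adjusted p = 0.000475, limma) and overlaps KCNH3 on the opposite strand, and INO80B fell by 0.24 on the log2 scale (from 41.4 ± 2.91 to 35 ± 3.24 TPM, adjusted p = 0.0345). INO80B shares its strand and sequence with the read-through gene INO80B-WBP1, so that its value is uncertain, and it did not pass under 10 of 19 alternatives, 5 of them with 1 library left out (adjusted p from 0.0522 to 0.114 there, and 0.0569 without LLY-283 replicate 4).

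In the list for the SAGA and ATAC acetyltransferases, to which TRRAP belongs, 4 of 22 genes were increased (TADA1, SGF29, MBIP and ZZZ3) and 0 decreased. At an unadjusted p-value under 0.05 limma gave 4 increased and 3 decreased genes in it, where 38.6% of all genes were under that p-value in either direction. The count of 4 fell to 1 without vehicle replicate 4 and without LLY-283 replicate 2, and to 2 without vehicle replicates 1, 2 or 3 or LLY-283 replicates 1 or 3, each left out alone. It was also 2 with the mitochondrial genes left out, with all genes above 0 kept and without the mean-variance trend. TADA1, a SAGA subunit, rose by 0.19 on the log2 scale (from 14.9 ± 0.838 to 17.0 ± 0.256 TPM, adjusted p = 0.0186, limma). In the list of other MYST acetyltransferases and their scaffolds, which shares MEAF6, 3 of 23 genes rose and 3 fell, and with the GC and length trend removed 9 rose and 1 fell (against 19.1% and 10.8% of all genes). BRPF3, a scaffold of MYST complexes, fell by 0.37 on the log2 scale (from 14.2 ± 0.871 to 10.9 ± 0.417 TPM, adjusted p = 0.00155). The catalytic genes of that list, KAT6A, KAT6B, KAT7 and KAT8, had log2 fold changes between -0.01 and 0.06 and did not pass. BRPF3 overlaps BRPF3-AS1 on the opposite strand.

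The TTT and R2TP factors assemble TRRAP and the RUVBL ATPases into their complexes. Of the 12 genes listed (2 members), 1 rose and 1 fell, while 2 rose and 2 fell under quantile normalization and 5 rose and 1 fell with the GC and length trend removed. Without LLY-283 replicate 4, 1 rose and 2 fell, and the counts were the same with the mitochondrial genes left out. PIH1D1, an R2TP adaptor, rose by 0.28 on the log2 scale (from 66.6 ± 3.30 to 80.8 ± 5.17 TPM, adjusted p = 0.00470, limma), and it overlaps ALDH16A1 on the opposite strand. DNAAF10 (older symbol WDR92), another R2TP-associated factor, fell by 0.47 on the log2 scale (from 14.8 ± 1.12 to 10.7 ± 0.413 TPM, adjusted p = 0.000755), and it overlaps a protein-coding gene on the same strand. TTI1, TTI2, TELO2 and RPAP3 did not pass.

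In the list for break signalling around TIP60, 1 of 15 genes rose and 2 fell, and with the GC and length trend removed 3 rose and 1 fell. MDC1, the mediator that binds phosphorylated H2AX, rose by 0.34 on the log2 scale (from 34.7 ± 4.14 to 43.7 ± 3.09 TPM, adjusted p = 0.0141, limma). Vehicle replicate 3 of MDC1 (40.84 TPM) lay above the lowest LLY-283 value (40.65 TPM), so that the groups overlapped, and MDC1 lies over the protein-coding gene TUBB and over MDC1-AS1, both on the opposite strand. Of the 2 genes that fell, the gene with the smaller p-value is not reported here. CHEK2, a checkpoint kinase named here after its values were seen, fell by 0.32 on the log2 scale (from 13.1 ± 1.25 to 10.5 ± 0.612 TPM, adjusted p = 0.0133, limma), and its groups did not overlap. It did not pass under quantile normalization (-0.23, adjusted p = 0.0625) or with the GC and length trend removed (-0.22, adjusted p = 0.0559), and it overlaps HSCB on the opposite strand. ATM, the kinase that TIP60 acetylates, had a log2 fold change of -0.15 (adjusted p = 0.161). A further list held EP300, CREBBP and the deacetylase genes HDAC1, HDAC2, HDAC3 and SIRT1. Of these 6 genes, 0 passed with limma, and 0 had an unadjusted p-value under 0.05, while 3 passed with the GC and length trend removed. Over the 100 genes of all 8 lists that are not members, 11 rose and 11 fell (22.0%), and none changed more than 1.5-fold with a passing p-value. The split was 30 increased and 3 decreased once the GC and length trend was removed, a setting under which 19.1% of all genes were increased and 10.8% decreased. Without LLY-283 replicate 4 it was 10 increased and 14 decreased.

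**Figure D4:**
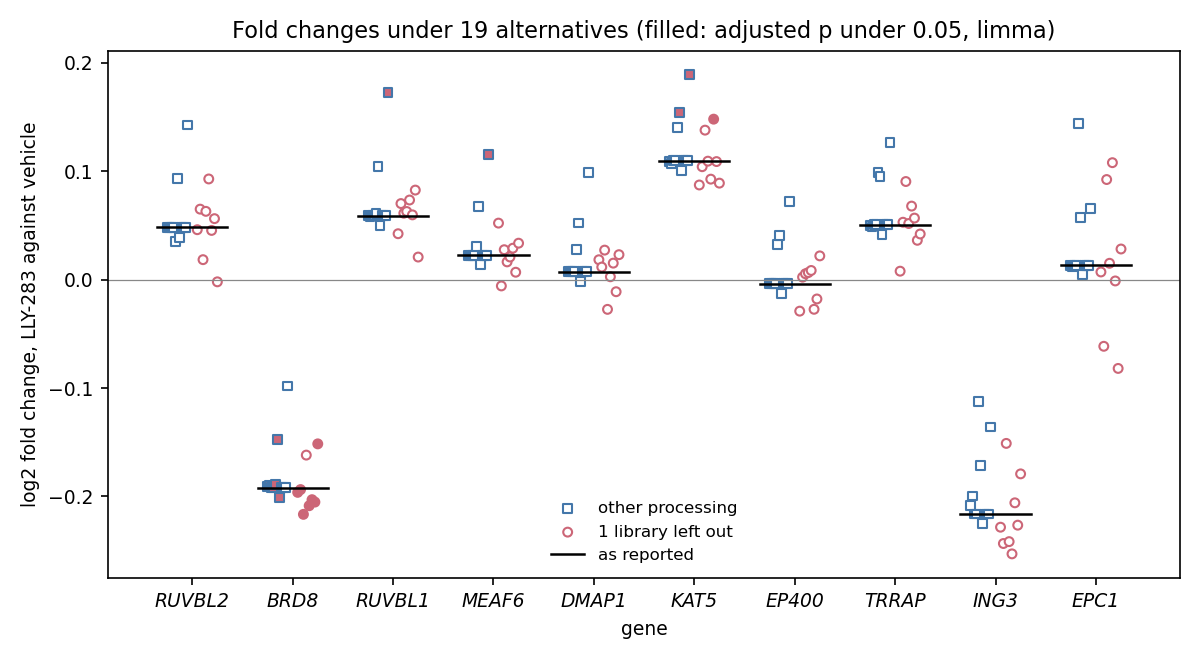
Log2 fold change of each member under 19 alternatives, with squares for other processing and circles for 1 library left out; filled symbols have an adjusted p-value under 0.05 (limma) and the line is the value as reported. BRD8 and ING3 stay below 0 and KAT5, RUVBL1 and TRRAP above it, while the other 5 genes have values on both sides of 0.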

How the data were processed

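RNAseq of poly(A) RNA was available for 8 U251 libraries, 4 treated with vehicle and 4 with LLY-283. The deposited values are TPM per gene, for which the authors trimmed adapters with Cutadapt 1.18, mapped reads to GRCh38 with STAR and ran RSEM on GENCODE release 41. For STAR and RSEM the paper gives 2.7.6a and 1.3.3, and the submitters' processing notes 2.7.0f and 1.3.1. TPM removes length and total but not differences in composition.

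The deposited TPM were put on the scale log2(TPM + 0.1), genes whose mean over the 8 libraries was under 1 TPM were left out, and the remaining 14478 were compared with limma 3.58.1 (mean-variance trend) in R 4.3.3, with Benjamini-Hochberg adjustment over all genes. Each symbol was looked up in the table, 1 through its older name. Ratios were tested by exact permutation of the libraries. The limma test was run before use on simulated data, with changes larger than those of the members and no difference in scaling. That run does not bear on changes as small as those of the members. Positions and overlaps came from GENCODE release 44 (GRCh38), promoters from RefSeq.

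The members and lists were chosen with earlier results of these data known. Named genes were all members, all other subunits and, per list, the gene of smallest p in each direction that passed; 1 gene so selected is not reported here, and genes named with a list beyond these were named after their values were seen. Same-numbered libraries were not treated as pairs in the main test (see the closing section). Results were recomputed with a pseudocount of 0.5 or 1, with 2 other low-level filters and 3 other scalings, eBayes without trend or robust, the replicate number as a block, the GC and length trend removed, and leaving out each library.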

Additional observations from a re-analysis of the deposited data

Results flagged for a closer look

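For 30 named genes, each group of 4 libraries was searched for a library far from the others (the gap to the nearest value, over the whole range, above Dixon's 95% critical value), and 5 of the 60 groups had one, where chance gives about 1 in 20. BRD8 in LLY-283 replicate 4 was 60.63 TPM, with the other 3 libraries between 67.49 and 68.28 TPM. EP400 in vehicle replicate 1 was 28.56 TPM (others 30.49 to 30.76), and ING3 in vehicle replicate 3 was 13.24 TPM (others 10.91 to 11.26). VPS72 in vehicle replicate 4 was 61.7 TPM (others 58.79 to 59.17), and MDC1 in vehicle replicate 3 was 40.84 TPM (others 32.11 to 33.4).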

How the results depend on the processing

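Over 19 alternatives for each of the 10 members, 166 of 190 values kept their direction and their side of the threshold, 16 changed sign without passing, 5 newly passed and 3 no longer passed. The replicate block took BRD8 over the threshold (-0.19, adjusted p = 0.0557, limma) and left 0 members decreased. Same-numbered libraries showed no shared deviation from their group means, with correlations of -0.085 to 0.032, and 0 of 8 matched their own number best. The labels do not say whether the cultures were set up in pairs, and these correlations cannot show it. With median-of-ratios scaling 1 member was increased (KAT5, 0.15), EP400 was at 0.041 and MBTD1 at 0.041, and 7 genes of the related lists were decreased. With quantile normalization EP400 was at 0.032, MBTD1 at 0.12, and 17 related genes were increased. With mitochondrial genes left out DMAP1 was at -0.0016. With the GC and length trend removed 3 members were increased (KAT5 0.19, RUVBL1 0.17, MEAF6 0.12) and 0 decreased (BRD8 -0.098), EP400 was at 0.072 and MBTD1 at 0.061, and 30 related genes rose and 3 fell. Across these settings the median of all genes moved from -0.05 to -0.002 (median-of-ratios), 0.01 (quantile) and 0.03 (trend removed), and that of the members from 0.02 to 0.06, 0.03 and 0.11. Each of these settings rescales the libraries, since removing the GC and length trend also brought every library to the same mean log2 value. How far the shifts under that setting go with GC content and length rather than with this rescaling was not tested.

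With each library left out in turn, increased members numbered 0 to 1 (KAT5, without LLY-283 replicate 2), decreased members 0 to 1 (0 without vehicle replicate 4) and increased related genes 6 to 10, with 7 without vehicle replicate 1, 6 without vehicle replicate 4, 7 without LLY-283 replicate 2 and 7 without LLY-283 replicate 3. Log2 fold changes ranged from 0.087 to 0.15 for KAT5, -0.22 to -0.15 for BRD8, -0.25 to -0.15 for ING3, 0.0077 to 0.09 for TRRAP, 0.021 to 0.082 for RUVBL1, -0.029 to 0.022 for EP400, -0.027 to 0.027 for DMAP1, -0.0059 to 0.052 for MEAF6, -0.082 to 0.11 for EPC1, -0.0021 to 0.093 for RUVBL2, -0.073 to 0.072 for MBTD1 and -0.013 to 0.064 for ACTL6A. Log2 ratio differences ranged from -0.078 to 0.0303 for EP400 to SRCAP, -0.16 to 0.069 for EPC1 to EPC2, -0.019 to 0.043 for RUVBL1 to RUVBL2, 0.067 to 0.18 for KAT5 to EP400 and 0.025 to 0.091 for KAT5 to TRRAP. With only 4 libraries per group and TPM values that keep no read number, counting error could not be separated from the spread between cultures.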
